A study of Rattus norvegicus with 24 samples.

Results

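The course of the diabetic ventricle from day 3 to day 28 was followed in 8 of the 24 arrays of the series, 4 from diabetic rats killed at day 28 and 4 from diabetic rats killed at day 3. The arrays were taken by their sample titles, all 4 of each group were used, and the signal was compared across the whole array. The animals were male Wistar rats that weighed 150 g when they received 65 mg/kg of streptozotocin, which kills pancreatic beta cells and so removes insulin. Every diabetic group had received the same dose, and no genotype other than the strain was given. Control rats had received citrate buffer and were killed on the same days, 4 per day, and they served here as the measure of growth without diabetes. The submitters described day 3 as a stage without cardiac symptoms and day 28 as a stage of diastolic dysfunction. Each array held the ventricle of 1 animal, so day 3 and day 28 were different animals and no animal was followed over time. The model is one of toxin-induced insulin loss in rats with free access to feed, and the sources used here do not give the hour of the day at which ventricles were taken.

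The ventricle of a young rat keeps growing for weeks, mainly by enlargement of its cardiomyocytes. Without insulin the heart takes up less glucose and burns more fatty acid, largely under the nuclear receptor PPAR-alpha, while repolarising potassium currents and the coupling between cells are known to weaken in diabetic rat hearts. The heart also carries its own circadian clock, in which the activators Clock and Bmal1 switch on genes such as Per2, Dbp and Bhlhe41 at set hours through a short DNA element called the E-box.

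The levels are MAS5 signals, in arbitrary intensity units that cannot be compared between genes. Over all 24 arrays the median signal ran from 322.7 to 444.7, and the highest of these was a diabetic day 3 array, replicate 1. On that array 1.9% of the probe sets lay under the floor of 30.5 used here, against 12.5 to 15% on the other 3 day 3 arrays and 10.8 to 12.4% on the 4 day 28 arrays. Counts of calls over all probe sets are given with and without it, but only some of the single genes are. Of the 60 named genes that passed, 15 did not pass without it. None of 5 array quality measures separated the days in diabetic rats (smallest adjusted p = 0.715 over the 5, exact two-sided permutation test). Hexokinase 3' to 5' ratios, a measure of RNA integrity, were 1.61, 2.23, 2.77 and 2.03 at day 3 and 1.89, 1.68, 1.43 and 1.81 at day 28. Harvest day went with the scan day and the chip lot, which no array of one harvest day shared with the other, so these cannot be told apart. The fluidics station, the machine that washes and stains the arrays, differed as well. All 4 diabetic day 3 arrays were run on station 2, while 1 diabetic day 28 array was run on station 2 and 3 were run on station 1. In the controls this ran the other way, with 3 day 3 arrays on station 1, 1 on station 2 and all 4 day 28 arrays on station 2.

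The diabetic rats gained weight between the 2 days, though less than the controls. Body weight was 157, 157, 144 and 146 g at day 3 and 240, 265, 205 and 210 g at day 28, so the groups did not overlap (151 ± 6.98 against 230.0 ± 28.0 g, SD, n = 4 each, p = 0.0286, adjusted p = 0.0458, exact two-sided permutation test over 8 comparisons). The smallest p that 4 against 4 allows is 0.0286. Control rats went from 173 ± 11.6 to 322 ± 24 g, also without overlap. The ventricles of diabetic rats weighed 0.405 ± 0.0252 g at day 3 and 0.568 ± 0.0665 g at day 28 (adjusted p = 0.0458), a difference of 0.163 g, against 0.292 g in the controls. Ventricle to body weight was 2.69 ± 0.263 mg per g at day 3 and 2.47 ± 0.0379 at day 28 (adjusted p = 0.229, exact permutation test), and the day 28 values lay within the day 3 range. Blood glucose was 524, 500.0, 618 and 518 mg/dL at day 3 and 702, 707, 565 and 557 mg/dL at day 28 (adjusted p = 0.191, exact permutation test). The glucose values of the 2 days overlapped, and all 8 lay far above the control range of 103 to 140.0 mg/dL.

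Gene expression changed more often downwards than upwards. Of 5244 probe sets tested, 308 differed between day 28 and day 3 in diabetic rats at an adjusted p under 0.05 (5.87%, limma with Benjamini-Hochberg adjustment), 89 higher (1.70%) and 219 lower (4.18%). The 4 day 28 arrays lay wholly outside the 4 day 3 arrays for 572 probe sets (10.9%). Counted with 1 probe set per gene, 173 of 3140 genes passed (5.51%), 48 higher (1.53%) and 125 lower (3.98%). The arrays of the 2 days did not overlap for 323 genes in diabetic rats (10.3%) and for 429 in controls (13.7%). The split between higher and lower moved with 1 array and with the scaling. Without day 3 replicate 1, 366 probe sets passed, 181 higher and 185 lower. When arrays were centred on their medians 151 passed, 56 higher and 95 lower, and with this centring and without that array 334 passed, 123 higher and 211 lower. With the fluidics station as a block 82 passed, with chip lot as a random block 68, and in a fit of the 2 diabetic groups alone 27, so the number of calls is known only roughly.

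Most of the calls in diabetic rats had the same sign in the controls, which grew over the same days. In controls 390 of 5244 probe sets passed (7.44%), 108 higher (2.06%) and 282 lower (5.38%). With 1 probe set per gene 194 of 3140 genes passed in controls (6.18%), 64 higher (2.04%) and 130 lower (4.14%). The changes of the 2 states, which share no array, correlated over the 5244 probe sets (Pearson's r = 0.64, a description across probe sets, which are not independent replicates, from arrays that share scan days and chip lots). Of the 308 calls in diabetic rats, 293 had the same sign in controls, and 124 passed there in the same direction. These 124 were 40.3% of the diabetic calls and 31.8% of the control calls, 24 of them higher and 100 lower. Only 1 probe set, that of G0s2, passed in both states in opposite directions.

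**Figure D1:**
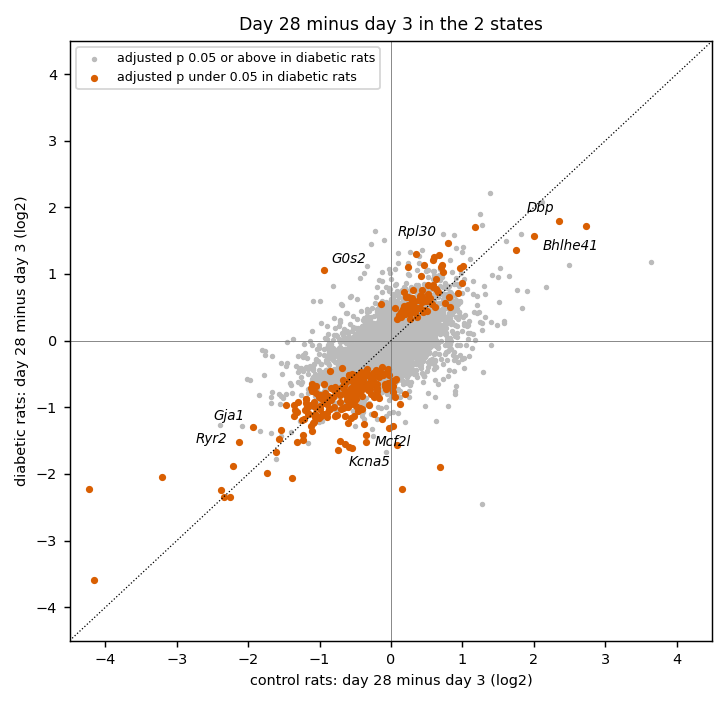
Change from day 3 to day 28 in control rats (x axis) and in diabetic rats (y axis), as log2 differences, for the 5244 probe sets tested; orange points passed an adjusted p under 0.05 in diabetic rats and the dotted line marks equal change. Most orange points lie at the lower left, with the clock genes Dbp and Bhlhe41 high in both states and G0s2 alone in the upper left.

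The largest named rises were those of 2 clock-controlled transcription factors. Dbp, a leucine zipper activator whose mRNA is a standard readout of the clock, had signals of 954, 1766, 2156 and 743 at day 3 and 4871, 3502, 4027 and 5598 at day 28. All 4 day 28 arrays lay above all 4 day 3 arrays, and the rise was 1.79 ± 0.31 on the log2 scale (SE, 3.45-fold, adjusted p = 0.00337). Bhlhe41, a repressor of the clock also known as Dec2, had signals of 461, 842, 865 and 650.1 at day 3 and 2096, 1854, 2242 and 1920.1 at day 28. Again the groups did not overlap, and the rise was 1.57 ± 0.25 (2.96-fold, adjusted p = 0.00252). Both rose in controls too, by 2.35 and 2.0, and both passed in diabetic rats whichever of the 8 arrays was left out, with the station block, and with chip lot as a random block. A second Dbp probe set rose by 1.72 (adjusted p = 0.0106).

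The 250 bases before the annotated start of these 2 genes are shown with those of Per2, a clock gene that rose in the controls, because the E-box is the element through which the clock acts on such genes. The sequences are RefSeq's, build GRCr8, read 5′ to 3′ on the gene's strand, and capitals mark the motifs found.
Dbp: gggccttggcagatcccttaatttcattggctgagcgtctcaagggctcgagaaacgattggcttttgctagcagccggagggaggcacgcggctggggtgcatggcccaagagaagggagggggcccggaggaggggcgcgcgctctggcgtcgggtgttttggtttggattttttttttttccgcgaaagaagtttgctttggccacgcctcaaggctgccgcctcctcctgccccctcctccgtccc
Bhlhe41: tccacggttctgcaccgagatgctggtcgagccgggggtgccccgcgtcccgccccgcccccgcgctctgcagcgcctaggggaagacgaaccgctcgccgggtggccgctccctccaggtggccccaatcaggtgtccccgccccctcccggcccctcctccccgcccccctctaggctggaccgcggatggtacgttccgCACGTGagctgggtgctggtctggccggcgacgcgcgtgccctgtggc
Per2: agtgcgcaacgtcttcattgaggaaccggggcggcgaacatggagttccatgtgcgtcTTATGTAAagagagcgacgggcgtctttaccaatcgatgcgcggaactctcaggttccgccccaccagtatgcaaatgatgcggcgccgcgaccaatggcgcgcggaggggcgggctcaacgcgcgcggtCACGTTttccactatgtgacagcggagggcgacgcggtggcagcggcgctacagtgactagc
They lie at chr1:105312006-105312255 (+ strand), chr4:180569356-180569605 (- strand) and chr9:99496994-99497243 (- strand). The E-box CACGTG, the variant CACGTT and the D-box TTATGTAA, at which Dbp itself binds, were searched on both strands, and none of the 3 overlaps another. Of 27457 upstream windows of this length, 5.79% held CACGTG, 4.14% held CACGTT and 0.816% held TTATGTAA. The Bhlhe41 window held 1 E-box, from 48 to 43 bases before the start. In the Per2 window stood 1 CACGTT, from 62 to 57 bases before the start, and 1 D-box, from 192 to 185 bases before it. The Dbp window held none of the 3.

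Apart from these 2, no clock gene passed in diabetic rats. Of 21 clock genes listed, 9 were tested, 2 rose, none fell and 7 did not pass, and the median change of the 9 was 0.30, against -0.02 over all genes. Per2, a repressor of its own activators, had signals of 692, 1056, 735 and 2192 at day 3 and 1222, 1230.0, 1749 and 1730.2 at day 28 in diabetic rats. These overlapped because replicate 4 of day 3 was high (log2 difference 0.49 ± 0.32, adjusted p = 0.391). In controls Per2 went from 425, 359, 298 and 1106 to 1623, 1377, 2034 and 1789.7, a rise of 1.83 (adjusted p = 0.00142). Nr1d2, the haem-binding repressor Rev-erb-beta, named here after its values were seen, was the fourth clock gene to rise in controls (1.58, adjusted p = 0.0354) and had a difference of 0.30 ± 0.45 in diabetic rats (adjusted p = 0.751). The list's median in controls was 0.86. The difference between the 2 courses was -1.35 ± 0.46 for Per2 (unadjusted p = 0.00691, adjusted p = 0.999) and -1.28 ± 0.64 for Nr1d2 (adjusted p = 0.999), so neither was shown to differ.

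**Figure D2:**
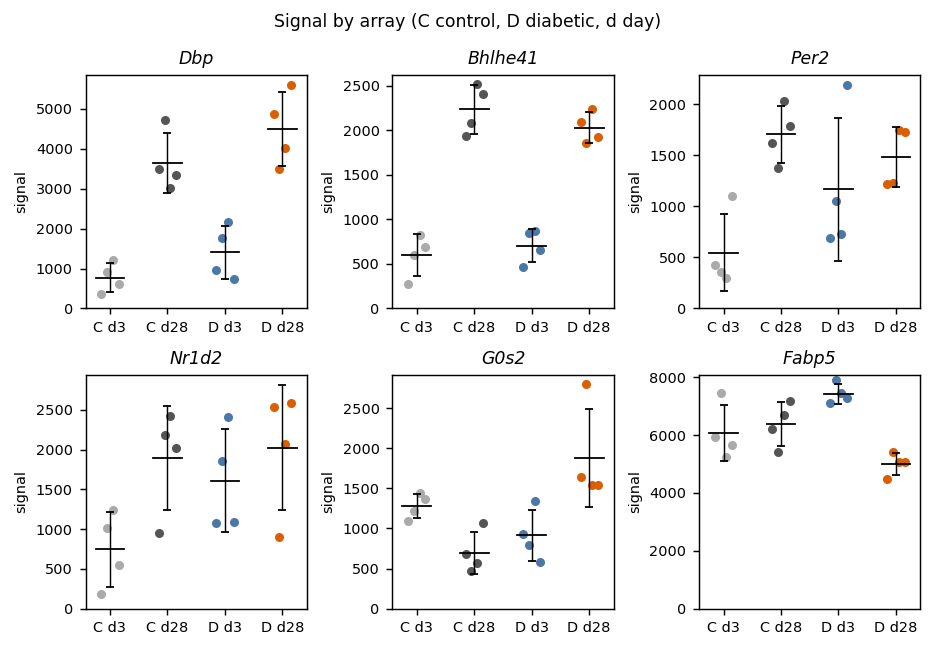
MAS5 signal (y axis, arbitrary units, from 0) of 6 genes on each control (C) and diabetic (D) array at day 3 and day 28 (x axis); bars are the mean and SD of 4 arrays. Dbp and Bhlhe41 are higher at day 28 in both states, Per2 and Nr1d2 overlap between days in diabetic rats, G0s2 moves in opposite directions, and Fabp5 is lower at day 28 in diabetic rats.

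G0s2 encodes an inhibitor of adipose triglyceride lipase, the enzyme that starts the breakdown of stored fat. Its signals in diabetic rats were 936, 789.9, 1340.0 and 586 at day 3 and 1640.4, 2796, 1546 and 1547 at day 28, without overlap (1.06 ± 0.26, adjusted p = 0.022). In controls they were 1098, 1216, 1439 and 1367 at day 3 and 678, 474, 568 and 1070.4 at day 28, and here the later group was the lower one, again without overlap (-0.94, adjusted p = 0.031). The difference between the courses was 2.0 ± 0.37 (unadjusted p = 1.76e-05, adjusted p = 0.0923 over 5244 probe sets), the smallest p of that comparison but not past the threshold. When 1 probe set per gene was tested it passed, and it also passed without day 3 replicate 3 of the diabetic rats or without day 28 replicate 4 of the controls. The difference did not pass with the station as a block or with chip lot as a random block, each with 0 calls. Between the days the station ran in opposite directions in the 2 states, so it does not cancel in this difference. The rise in diabetic rats did not pass with the station as a block (adjusted p = 0.0864), with chip lot as a random block (0.0785), or without day 3 replicate 2 or 4 or day 28 replicate 2.

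The third largest named rise was that of Rpl30, a protein of the large ribosomal subunit, which had signals of 147, 389.9, 431 and 418 at day 3 and 1027, 944, 1174 and 519 at day 28. The groups did not overlap (1.46 ± 0.39, adjusted p = 0.0312), but day 3 replicate 1 was the lowest of all, and without it the rise was 1.09 (adjusted p = 0.0747). The call was also lost without any 1 of 5 other diabetic arrays (adjusted p from 0.0519 to 0.0939), with rises of 1.32 to 1.59. Rpl17 rose by 1.30 ± 0.36 (adjusted p = 0.0379), and 1 day 28 array, replicate 3, stood at 3278 against 993 to 1277 on the other 3. Its call was lost without any 1 of 4 of the 8 arrays. Of 43 ribosomal protein genes tested, 4 rose and none fell (Rpl19 by 0.36 ± 0.10 and Rpl35 by 0.43 ± 0.13, with 0.14 in a second, dimmer probe set that did not pass), with a median of 0.15. Without day 3 replicate 1 only 1 of the 43 passed and the median was 0.08. Ribosomal protein genes have many processed copies in the genome, and how the probes divide between them is uncertain.

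Ndufb1, a subunit of respiratory complex I, had signals of 4161, 5479.5, 4432 and 6269 at day 3 and 8276, 8380.2, 7339.6 and 9294 at day 28. The day 28 arrays were all higher (0.73 ± 0.13, adjusted p = 0.00472), as in controls (0.65, adjusted p = 0.00484), and the call held whichever diabetic array was left out. The oxidative phosphorylation list had 31 tested genes, of which 3 rose, none fell and 28 did not pass, with a median of 0.25. They were Cyc1, the cytochrome c1 of complex III (0.49 ± 0.11, adjusted p = 0.0119), Cox6a1 of complex IV (0.47 ± 0.12) and Atp5if1, an inhibitor of the ATP synthase (0.64 ± 0.19). Of 2 other Cox6a1 probe sets 1 rose by 0.65 and 1 differed by 0.28, and the 2 others of Atp5if1 differed by 0.44 and -0.02, without passing. Cox6a2 differed by 0.33 ± 0.11 in its brightest probe set (limma, adjusted p = 0.0706) and rose by 0.43 in a dimmer one (adjusted p = 0.0408). The list's median in controls was 0.27. With the station as a block none of the 3 passed, and the list's median was 0.23. Ndufb1 is not on that list and was named for its size.

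Hspe1, the small chaperonin of the mitochondrial matrix, rose by 0.70 ± 0.17 (adjusted p = 0.0204), from 10478, 11312, 11996 and 12952 at day 3 to 15367, 20956, 26299.7 and 15303 at day 28, without overlap. A second Hspe1 probe set differed by 0.26 (adjusted p = 0.28). Of 19 heat shock genes tested, 3 rose and none fell, with a median of 0.37 against 0.27 in controls. The other 2 were the cytosolic chaperone Hsp90ab1 (0.40 ± 0.11, adjusted p = 0.0373) and the small heat shock protein Cryab of the sarcomere (0.46 ± 0.13, adjusted p = 0.0435). The 3 other Hsp90ab1 probe sets differed by 0.21, 0.09 and -0.06 and the other of Cryab by 0.19, and none of these passed. Without day 3 replicate 1, 4 of the 19 passed, and with the station as a block none did.

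The remaining genes of the 15 largest rises were mixed in function. Map2k6, a kinase that activates p38, was tightly set at day 3, with signals of 504, 506, 499 and 506, and stood at 839, 823, 1128 and 1086 at day 28. That rise of 0.93 ± 0.21 (adjusted p = 0.0115) held whichever diabetic array was left out, but not with the station as a block (adjusted p = 0.0674) or with chip lot as a random block (0.0553). Slco2a1, a prostaglandin transporter, rose by 1.29 ± 0.35, from low signals of 126, 62, 177 and 185 at day 3. A second probe set of it, with a mean of 216 at day 3, differed by -0.21 (limma, adjusted p = 0.798). Rbm24, a splicing regulator of heart muscle, rose by 1.10 ± 0.32, with 1.27 in a second probe set that did not pass (adjusted p = 0.167). Maoa, which breaks down noradrenaline and serotonin, rose by 0.72 ± 0.21 and by 1.09 in its second probe set. Ppil3, a cyclophilin of the spliceosome, rose by 0.78 ± 0.22, while its second probe set differed by -0.12 (adjusted p = 0.834). Rnmt, which methylates the mRNA cap, rose by 0.76 ± 0.23 and Pdxkl1 by 0.73 ± 0.18. Mgmt, a DNA repair protein, rose by 0.63 ± 0.17, with 0.44 in a second probe set that did not pass (adjusted p = 0.505). Of the 15 rises, 14 had the same sign in controls and 4 passed there (Dbp, Bhlhe41, Ndufb1 and Maoa), G0s2 being the exception in sign. Only Dbp, Bhlhe41, Map2k6 and Ndufb1 passed whichever of the 8 diabetic arrays was left out. With the station as a block 5 of the 15 passed (Dbp, Bhlhe41, Pdxkl1, Ndufb1 and Maoa), and with chip lot as a random block 3 (Dbp, Bhlhe41 and Ndufb1).

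**Figure D3:**
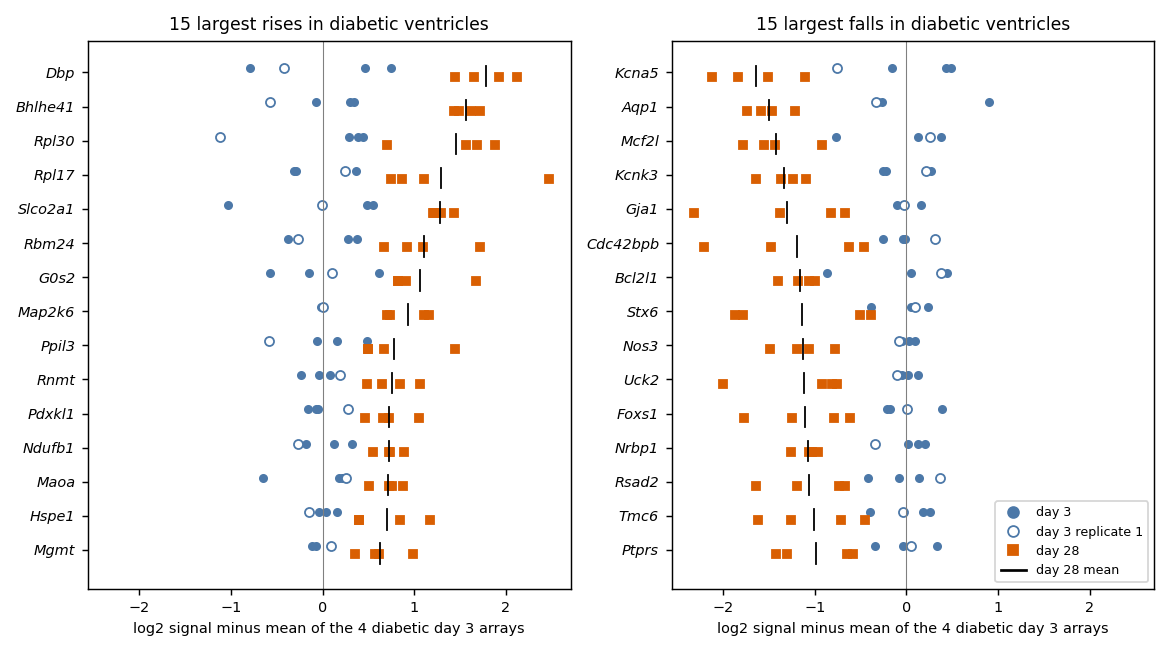
The 15 largest rises and 15 largest falls from day 3 to day 28 in diabetic ventricles, by array, as log2 signal minus the mean of the 4 day 3 arrays (x axis); circles are day 3 arrays (open for replicate 1), squares day 28 arrays and black ticks the day 28 mean. By the rule that chose the genes, no square overlaps the circles of its gene.

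The largest named fall was that of Kcna5, the Kv1.5 channel that carries part of the repolarising potassium current, which had signals of 303, 718, 462 and 694 at day 3 and 239, 144, 181 and 118 at day 28. Every day 28 array lay under every day 3 array (-1.64 ± 0.34, 3.13-fold lower, adjusted p = 0.00878). In controls the difference was -0.74 (adjusted p = 0.192) and the groups overlapped, with 1 of the 4 day 28 arrays above every day 3 array. Kcnk3, the background potassium channel TASK-1, had signals of 2229, 2322, 1618 and 1647 at day 3 and 815, 748, 619 and 903 at day 28, a fall of 1.34 ± 0.28 without overlap (adjusted p = 0.00922). It fell in controls as well (-1.54, adjusted p = 0.00197), and its second, dimmer probe set fell by 3.59 in diabetic rats, from 1848 ± 157 to 218 ± 207 (SD, n = 4). Of 14 potassium channel genes tested these 2 fell, none rose and 12 did not pass, with a median of -0.13. Both calls held without each diabetic array in turn and with the station as a block.

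Gja1, connexin 43, the main gap junction protein between ventricular cardiomyocytes, had signals of 3509.7, 3986, 3459 and 3327 at day 3 and 2008, 712, 1373 and 2233 at day 28. The groups did not overlap (-1.30 ± 0.29, adjusted p = 0.0115), and the spread at day 28 was wide. In controls the fall was -1.93 (adjusted p = 0.000404). Gja5, connexin 40, which is found in the conduction system, the atria and arterial endothelium, went the other way by 0.59 ± 0.18 (adjusted p = 0.0474), with overlapping groups and a second probe set at -0.39 (adjusted p = 0.286). Of 7 connexin and intercalated disc genes tested, 1 rose and 1 fell. With the station as a block the fall of Gja1 passed and the rise of Gja5 did not. Ryr2, the calcium release channel of the sarcoplasmic reticulum, had signals of 4623, 4262, 1429.8 and 4856 at day 3 and 1322, 946, 858 and 1857 at day 28. It fell by 1.53 ± 0.33 (adjusted p = 0.0108) although the groups overlapped, because day 3 replicate 3 was low, and it fell by 2.13 in controls. The call was lost with the station as a block and without day 3 replicate 4 (limma, adjusted p = 0.0512). Ryr2 was the only one of 19 calcium cycling genes to pass in diabetic rats, and that list's median was 0.01.

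Several signal transducers fell as well. Gnai2, an inhibitory G protein alpha subunit, fell by 0.95 ± 0.20 (adjusted p = 0.00878) and its 2 other probe sets by 0.72 and 0.59, both past the threshold. Grk2, the kinase that desensitises beta-adrenergic receptors, fell by 0.58 ± 0.16 (adjusted p = 0.0365), and by 0.85 in its other probe set. Of 19 adrenergic and muscarinic signalling genes tested, these 2 fell and none rose, while 6 fell in controls. Without day 3 replicate 1 only 1 of the 19 passed. Mcf2l, a guanine nucleotide exchange factor, had signals of 1246, 1135, 609.8 and 1354 at day 3 and 551, 302, 384 and 355 at day 28, without overlap (-1.42 ± 0.25, adjusted p = 0.0041). In controls its difference was -0.35 (adjusted p = 0.417), and the difference between courses was -1.08 ± 0.36 (unadjusted p = 0.00581, adjusted p = 0.999). Bcl2l1, the anti-apoptotic protein Bcl-x, fell by 1.16 ± 0.21 (adjusted p = 0.00472), from 2023, 2106, 854 and 1606 at day 3 to 779.7, 686, 588 and 742 at day 28, and its 2 other probe sets fell by 1.03 and 0.85. Ptprs, a receptor tyrosine phosphatase, fell by 0.99 ± 0.20, and 1 of its 2 other probe sets fell by 0.93 while the other differed by 0.42 (adjusted p = 0.646).

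Of the markers of endothelium, the lining of blood vessels, 3 fell from day 3 to day 28. Nos3, the endothelial nitric oxide synthase, had signals of 814, 924, 881 and 837 at day 3 and 378, 306, 412 and 503 at day 28. The groups stood well apart (-1.13 ± 0.20, 2.19-fold lower, adjusted p = 0.00425), while 4 other, dimmer Nos3 probe sets differed by -1.39 to -0.18 and did not pass. Pecam1, the platelet and endothelial adhesion molecule CD31, had signals of 5278, 4261, 3763 and 5347 at day 3 and 2763, 1664, 2386 and 3456 at day 28, without overlap (-0.89 ± 0.19, adjusted p = 0.00922). Egfl7, which endothelial cells secrete, fell by 0.81 ± 0.22 (adjusted p = 0.036), a call that was lost without any 1 of 6 of the 8 arrays. Vwf, von Willebrand factor, differed by -0.96 ± 0.33 (adjusted p = 0.0843). Of 8 endothelial markers tested out of 14 listed, 3 fell, none rose and 5 did not pass, with a median of -0.79. Their changes ran from -1.13 to 0.77, and 1 of the 8 was positive. Without day 3 replicate 1 the median was -0.57 with 2 falls, and with the station as a block it was -0.79 with 2 falls. The summed signal of the 10 markers on the array ran from 10698 to 12937 at day 3 and from 6168 to 8850 at day 28 in diabetic rats, without overlap. This sum is weighted to the brightest markers and includes the 3 that fell, so it is not independent of their calls. In controls it ran from 11317 to 13560 and from 7018 to 9203, and Nos3 and Pecam1 fell there too (-0.98 and -0.85). In whole ventricle, fewer cells of a type and less RNA per cell cannot be told apart.

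Aqp1, a water channel rich in capillary endothelium and red cells, showed the fall with the smallest adjusted p of the 15. Its signals were 6662, 6774, 6974 and 15689.7 at day 3 and 2787, 2502, 3043 and 3617 at day 28. Day 3 replicate 4 stood far above the other 3, yet every day 28 array lay under every day 3 array (-1.50 ± 0.22, adjusted p = 0.00157), and without that replicate the fall was 1.20 (adjusted p = 0.00266). In controls the groups did not overlap either, and the difference was -0.72 (adjusted p = 0.0506). The difference between courses was -0.79 ± 0.32 (unadjusted p = 0.0202, adjusted p = 0.999). Smooth muscle and pericyte markers, 7 tested, had a median of -0.30 with none past the threshold in the brightest probe set. For Acta2, smooth muscle actin, that probe set differed by -0.70 ± 0.28 (adjusted p = 0.131), while a dimmer one fell by 2.34, from 2563 ± 1162 to 455 ± 94.1 (adjusted p = 0.0114), and fell by as much in controls. The median of cardiomyocyte markers, 9 tested, was 0.33 with Actc1 higher (0.49 ± 0.15, adjusted p = 0.047) and Ryr2 lower. The median was -0.07 with quantile normalization. Actc1 did not pass there, with median centring, with the station as a block or without day 3 replicate 1. The summed cardiomyocyte signal ran from 456353 to 476809 at day 3 and from 509255 to 761069 at day 28 in diabetic rats. In controls it ran from 478784 to 518914 and from 503760 to 679867, with overlap. No marker of these lists lay at or under the floor in all 8 diabetic arrays. The part of cell composition in these falls was not tested.

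**Figure D4:**
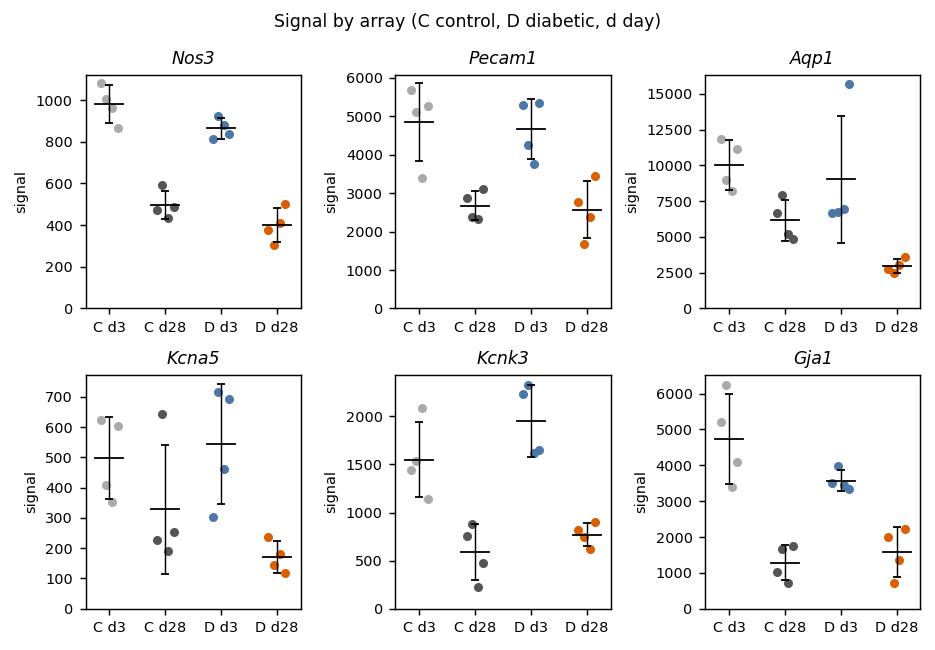
MAS5 signal (y axis, arbitrary units, from 0) of 6 genes that fell in diabetic rats, on each control (C) and diabetic (D) array at day 3 and day 28 (x axis); bars are the mean and SD of 4 arrays. Every diabetic day 28 array lies under every diabetic day 3 array, and the control groups separate in the same direction for each gene except Kcna5.

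Few genes of the extracellular matrix passed, and these were lower at day 28, as were most calls over the whole array. Eln, elastin, had signals of 3862, 3538, 3346 and 2736 at day 3 and 2233, 2058, 1646 and 1428 at day 28, without overlap (-0.88 ± 0.20, adjusted p = 0.0125). Lamc1, the laminin gamma-1 chain of basement membranes, fell by 0.81 ± 0.18 (adjusted p = 0.0106), and Mmp14, a membrane-bound metalloprotease that cleaves collagen, by 0.94 ± 0.22 (adjusted p = 0.0175). Of 19 non-collagen matrix genes tested 2 fell, and of 8 proteases and inhibitors 1 fell, with none higher. Over all 3140 genes 3.98% were lower and 1.53% higher. With the station as a block none of the 3 passed (adjusted p from 0.0614 to 0.0946). Lamb2, a laminin beta chain, differed by -0.43 ± 0.14 in its brightest probe set (limma, adjusted p = 0.0632). A dimmer one fell by 0.96 (adjusted p = 0.0282), and by 1.36 in controls. None of 6 collagen genes passed in the probe set with the highest mean (median -0.37), but the probe sets of a gene disagreed. Col1a1 differed by 0.16 ± 0.25 in its brightest probe set (adjusted p = 0.754), while its others fell by 1.01, from 11996 ± 1885 to 5918 ± 748 (adjusted p = 0.00922), and by 1.23 (adjusted p = 0.00878), and the last differed by -0.49 (adjusted p = 0.142). Col3a1 likewise differed by -0.43 ± 0.27 in 1 probe set (adjusted p = 0.349) and fell by 0.92 in the other (adjusted p = 0.0175). The same probe sets of both collagens fell in controls, by 1.17, 1.10 and 1.31.

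The remaining falls of the 15 included Cdc42bpb, a kinase under Cdc42 (-1.19 ± 0.30), Stx6, a syntaxin of the Golgi and endosomes (-1.14 ± 0.34), and Uck2, a uridine-cytidine kinase (-1.12 ± 0.27). They also included the forkhead factor Foxs1 (-1.11 ± 0.25), the pseudokinase Nrbp1 (-1.08 ± 0.29), the interferon-induced Rsad2 (-1.06 ± 0.28, and -1.12 in its other probe set) and Tmc6 (-1.01 ± 0.26). All 15 had the same sign in controls and 6 passed there. Of the 15, 8 passed whichever diabetic array was left out (Kcna5, Aqp1, Mcf2l, Kcnk3, Gja1, Bcl2l1, Nos3 and Ptprs), 10 passed with the station as a block and 8 with chip lot as a random block.

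In the lists of fuel use described here, counted by brightest probe set, Ucp3 and Fabp5 fell, and Acadm, Eno1 and Hsd17b4 rose. With median centring none of Ucp3, Fabp5, Acadm and Eno1 passed. With the station as a block only Ucp3 of these genes passed. Ucp3, an uncoupling protein under PPAR-alpha, had signals of 2597, 2666, 2322 and 1557 at day 3 and 1295, 1489.8, 956 and 1155 at day 28, a fall of 0.89 ± 0.24 without overlap (adjusted p = 0.0355, a call that was lost without any 1 of 5 of the 8 arrays, with an adjusted p of 0.0541 to 0.11). A second Ucp3 probe set fell by 1.04 (adjusted p = 0.046). Pdk4, which shuts pyruvate out of the mitochondrion's oxidation, had signals of 22848, 20051, 15718 and 20709 at day 3 and 10116, 8433, 10559 and 10285 at day 28, groups that did not overlap but did not pass over all probe sets (-1.0 ± 0.32, adjusted p = 0.0621). In controls Pdk4 fell by 1.12 (adjusted p = 0.0327). Acadm, the medium-chain acyl-CoA dehydrogenase, rose by 0.36 ± 0.10 (adjusted p = 0.0427), the only 1 of 16 fatty acid oxidation genes to pass (median 0.22). Of 13 PPAR-alpha targets, 1 rose (Acadm) and 1 fell (Ucp3), with a median of 0.21 against -0.14 in controls. Ucp2, a target on that list, differed by -0.41 ± 0.17 in its brightest probe set (limma, adjusted p = 0.159). A dimmer one fell by 0.99, from 10287 ± 1890 to 5145 ± 823 (SD, n = 4, adjusted p = 0.00501), and by 1.07 in controls. Fabp5, a fatty acid carrier of endothelium and macrophages, had signals of 7096, 7908, 7437 and 7266 at day 3 and 4480.2, 5405, 5068 and 5075 at day 28, a fall of 0.57 ± 0.14 (adjusted p = 0.0232). It was the only one of 12 fatty acid uptake genes to pass, its difference in controls was 0.08, and the difference between courses had an unadjusted p of 0.00402 (adjusted p = 0.999). Eno1, an enolase of glycolysis, rose by 0.38 ± 0.10 (adjusted p = 0.0232), 1 of 15 glycolysis genes, and its other probe set differed by 0.31 (adjusted p = 0.127). Hsd17b4, a multifunctional enzyme of peroxisomal beta-oxidation, rose by 0.60 ± 0.13 (adjusted p = 0.00922), 1 of 7 peroxisomal genes, although its 3 other probe sets differed by 0.32, -0.07 and -0.16 and did not pass.

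The glucose transporter Slc2a4 differed by -0.10 ± 0.18, hexokinase Hk2 by -0.41 ± 0.19, the fatty acid receptor Cd36 by -0.19 ± 0.21 and the carnitine transferase Cpt1b by 0.02 ± 0.09, none of them past the threshold (adjusted p between 0.198 and 0.948). The fatty acyl-CoA thioesterase Acot1 varied most, with signals of 1304, 625, 1073 and 142 at day 3 and 838, 799, 1966 and 1878 at day 28 (1.08 ± 0.58, adjusted p = 0.28). Its groups overlapped. Markers of a stressed myocardium did not pass either. The natriuretic peptide genes Nppa and Nppb differed by 0.07 ± 0.47 and 0.46 ± 0.25. The slow myosin heavy chain Myh7 had signals of 83353, 75722, 76897 and 57538 at day 3 and 84533, 86092, 124350.1 and 92749.6 at day 28, which did not overlap but differed by only 0.40 ± 0.15 (adjusted p = 0.104), and the fast chain Myh6 differed by 0.33 ± 0.14 in the same direction (adjusted p = 0.144). A second, dimmer Myh7 probe set differed by 0.23 in diabetic rats (limma, adjusted p = 0.727) and rose by 1.48 in controls (adjusted p = 0.00723). At day 3 it stood at 42469 ± 11327 in diabetic and 6586 ± 4358 in control rats. Its difference between courses was -1.24 (unadjusted p = 0.0115) and did not pass. The calcium pump Atp2a2 and its inhibitor Pln differed by 0.24 ± 0.17 and 0.05 ± 0.11. Of 19 heart failure and fetal genes, 1 rose (Actc1) and none fell, with a median of 0.34. With quantile normalization the median was 0.01 and none passed.

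None of 16 genes of the insulin-like growth factor axis, which drives body growth, passed in diabetic rats (median -0.19). In controls Ghr rose and Igfbp3, Igfbp5, Insr and H19 fell, genes named here after their values were seen except Igfbp3, Ghr and H19. Igfbp3, a binding protein for the growth factor, differed by -0.83 ± 0.26 in diabetic rats (adjusted p = 0.0563) and fell by 1.55 in controls (adjusted p = 0.00114), and the difference between courses was 0.72 ± 0.37 (adjusted p = 0.999). Igf1 itself differed by -0.23 ± 0.26. The imprinted growth regulator H19 differed by -0.21 ± 0.26 in its brighter probe set, while its dimmer one fell from 725 ± 96.6 to 198 ± 156 in diabetic rats (-2.23, adjusted p = 0.00803) and stood at 1358 ± 989 and 65.0 ± 24.2 in controls. The last of these means lay under the 25th percentile of all signals (93.6), so no size is given for the change in controls. Of 20 cell division genes tested only Stmn1, a microtubule-destabilising protein, passed in its brightest probe set (-0.86 ± 0.24, adjusted p = 0.0365), and Cdk1 differed by 0.19 ± 0.45. The cyclin Ccnd1 differed by 0.39 ± 0.24 in its brightest probe set (limma, adjusted p = 0.346). A dimmer one rose by 0.86 (adjusted p = 0.0416), and by 0.99 in controls, while its others differed by 0.70 and 0.14 without passing.

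Sod1 (0.40 ± 0.11) and Gpx1 (0.44 ± 0.12), both antioxidant enzymes, rose among 21 antioxidant genes, while the other probe sets of Sod1 (0.23 and 0.25) and of Gpx1 (0.37) did not pass. Tap1, a peptide transporter of antigen presentation, rose by 0.58 ± 0.17 among 13 interferon and MHC class I genes, while its other probe set differed by -0.14 (adjusted p = 0.758). Without day 3 replicate 1 none of the 13 passed. Of 8 adipocyte markers tested, Lep rose by 0.43 ± 0.12 and Lipe, the hormone-sensitive lipase, fell by 0.65 ± 0.19 (0.93 in its other probe set), each with overlapping groups. Without day 3 replicate 1 the fall of Lipe in its brightest probe set did not pass. No gene of 9 glucocorticoid-responsive genes (median -0.42, against 0.21 in controls), 8 MHC class II genes (median -0.34, against -0.03) or 6 macrophage markers (median -0.25, against 0.18) passed in its brightest probe set. Cebpb, a glucocorticoid-responsive gene, differed by -0.42 ± 0.27 in that probe set (limma, adjusted p = 0.377). A dimmer one fell by 1.28 (adjusted p = 0.0435) and differed by 0.02 in controls. The summed macrophage signal ran from 12102 to 16552 at day 3 and from 8814 to 13043 at day 28. Of the fixed set, Txnip (-0.10 ± 0.15), Penk (0.42 ± 0.36) and Pik3c2g (0.28 ± 0.28) did not pass.

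**Figure D5:**
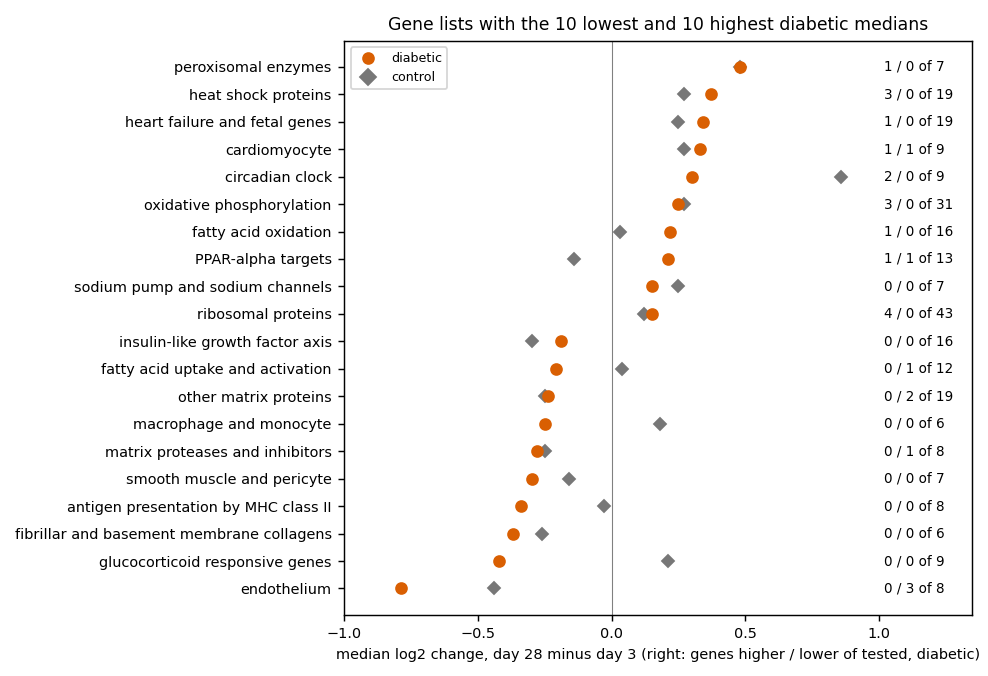
Median log2 change from day 3 to day 28 (x axis) over the tested genes of each list, for diabetic (circles) and control (diamonds) rats; the 10 lists with the lowest and the 10 with the highest diabetic medians among lists with at least 4 tested genes are shown, and numbers at the right count genes higher and lower past the threshold of those tested in diabetic rats. Endothelial markers have the lowest median and no list has more than 4 genes past the threshold.

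Whether the diabetic course itself differed from growth in the controls was asked by the difference of the 2 changes. No probe set of 5244 passed (0.0%, limma, adjusted p under 0.05), and 243 had an unadjusted p under 0.05. The lowest p after that of G0s2 in the direction of a higher diabetic change were those of Fzd1, a Wnt receptor (0.72 ± 0.21, unadjusted p = 0.00196), and Rbmx, an RNA-binding protein (0.69 ± 0.20, unadjusted p = 0.0023). Fzd1 fell in controls by 0.66 and differed by 0.06 ± 0.15 in diabetic rats, and Rbmx rose by 0.55 ± 0.14 in diabetic rats and differed by -0.14 in controls. In the other direction stood Lpar1, a lysophosphatidic acid receptor (-1.01 ± 0.25, unadjusted p = 0.000442), Xdh, the xanthine dehydrogenase that makes uric acid (-1.20 ± 0.30, unadjusted p = 0.000487), and Ptprr, a tyrosine phosphatase (-1.06 ± 0.28, unadjusted p = 0.00088). Lpar1 had signals of 779.9, 662, 807 and 602 at day 3 and 423, 345, 416 and 441 at day 28 in diabetic rats, a fall of 0.81 ± 0.17 without overlap (adjusted p = 0.0106), and a difference of 0.20 in controls. Xdh had signals of 3558, 4272, 3091 and 6552 at day 3 and 3011, 2907, 2618 and 2641 at day 28 (-0.59 ± 0.21, adjusted p = 0.0934), against a difference of 0.61 in controls. Ptprr differed by 0.02 ± 0.20 in diabetic rats and rose by 1.08 in controls. In simulated data of this size, without effects of array handling, the difference test recovered 42.7% of 2-fold and 86.1% of 4-fold differences. Thus 0 calls do not show that the courses were equal.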

How the data were processed

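RNA from the ventricles of 24 rats was hybridised to Affymetrix RG-U34A arrays, 1 array per animal, so replicates are separate animals. The authors deposited a MAS5 signal per probe set, a linear intensity, per the submitters' processing notes, with the version not given in the sources used here. Each array's mean between its 2nd and 98th percentile was 1499.2 to 1500.0, which shows that signals had been brought to 1 target level. Of 8799 probe sets, 59 array controls were dropped, which left 8740, and 7006 of these matched 1 symbol, 308 several and 1426 none. Of the calls in diabetic rats, 48 had no single symbol and are not named.

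Values under the pooled 10th percentile (30.5) were raised to it, taken to log2, and filtered at the 40th percentile of mean log2 signal, which kept 5244 probe sets. Group means of all 24 arrays were fitted with limma 3.58.1 in R 4.3.3 (eBayes with trend and robust options, 18 residual and a median of 6 prior degrees of freedom), with the day 28 minus day 3 change in diabetic rats, the same in controls, and their difference as contrasts. Tests were two-sided with Benjamini-Hochberg adjustment over all probe sets, at a threshold of 0.05. A log2 change is given with its standard error. The number of arrays limits the precision, and the median standard error of a change was 0.214. On simulated data the fit recovered 32.8%, 71% and 95.8% of 1.5-fold, 2-fold and 4-fold changes in the diabetic course, with 5.4% false calls. The simulated noise was independent between arrays, with no effect of scan day, chip lot or station. The share of false calls among the real calls is therefore not known from it. Animal and array measures were compared by exact permutation over 70 arrangements (Python 3.11.15, scipy 1.17.1, numpy 2.4.6, pandas 2.3.3). Figures were drawn with matplotlib 3.10.9.

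A gene was represented by its probe set with the highest mean, and the counts over a list rest on that probe set alone. For named genes that passed in it, the other probe sets tested are given. Where it did not pass but another probe set of the gene did, that is given too. The genes named are the 15 largest rises and 15 largest falls among genes past the threshold whose day 28 arrays all lay beyond the day 3 arrays, the 3 with the smallest p each way for the difference between courses, up to 4 members of a described list by smallest p, and a set of 21 cardiac genes. There were 49 gene lists, and apart from the ribosomal proteins 571 of their 918 entries were tested. The comparison, the lists and the named set were chosen with earlier results of these data known. Alternatives covered the floor, filter, scaling, variance model, probe set choice, blocks for replicate number, station, scan day and chip lot, and leaving out arrays. Chip lot as a random block, the arrays of station 2 alone and median centring without day 3 replicate 1 were added after the data were seen. Promoters came from RefSeq (GRCr8).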

Additional observations from a re-analysis of the deposited data

Results flagged for a closer look

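G0s2 was the only gene whose diabetic arrays separated in one direction and whose control arrays separated in the other, with a difference between courses of 2.0 on the log2 scale that was tested and did not pass over all probe sets (adjusted p = 0.0923). Within G0s2, day 28 replicate 2 of the diabetic rats (2796) also stood far above the other 3 by Dixon's gap test.

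The same gap test, applied to 196 groups of 4 among the named genes and the animal and array measures, marked 11 values in all, and chance alone marks about 1 group in 20. In diabetic day 3 arrays these were Rpl30 in replicate 1 (146.8, the lowest), Maoa in replicate 4 (7144, the lowest), Aqp1 in replicate 4 (15690, the highest), and Ryr2 and Lamc1 in replicate 3 (1430 and 6933, both the lowest). In diabetic day 28 arrays they were Rpl19 in replicate 4 (33298, the highest), Gja5 in replicate 1 (1973, the highest), Uck2 in replicate 4 (135.5, the lowest) and Nppb in replicate 2 (12647, the highest). The actin 3' to 5' ratio of day 28 replicate 3 was 1.87, the highest of its group. Rpl30 did not pass without day 3 replicate 1 or any 1 of 5 other diabetic arrays, Ryr2 and Uck2 did not pass without day 3 replicate 4, and Aqp1 and Lamc1 passed whichever diabetic array was left out.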

How the results depend on the processing

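The 308 calls of the diabetic course fell to 195 with quantile normalization, 151 with median centring (334 when day 3 replicate 1 was also left out), 197 with scan day as a random block, 82 with the fluidics station as a block, 68 with chip lot as a random block, 27 in a fit of the 2 groups alone, 51 at an adjusted p under 0.01 and 4 with station 2 alone, which leaves 1 day 28 array. With 1 probe set per gene and fewer tests there were 176. Leaving out each diabetic array gave 90 to 366, the counts under 205 being those without day 3 replicate 2 (125) or 4 (90) or day 28 replicate 2 (118) or 3 (105). The 390 calls in controls became 213 in a fit of the 2 groups alone, 184 with 1 probe set per gene, 160 with the station as a block, 128 with chip lot as a random block, 114 at an adjusted p under 0.01, and 189 to 595 with each control array left out. The difference between courses had 0 calls (243 at an unadjusted p under 0.05), 1 with 1 probe set per gene, 0 to 1 with each array left out (G0s2) and 3 with station 2 alone. Except where stated, the cause was not tested.

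With a replicate block the diabetic course had 316 calls, 279 of them among the 308, the controls 382 and the difference 0. Deviations of same-numbered diabetic arrays correlated at -0.125 to 0.041, so the numbers are only labels. Scan day and chip lot as fixed blocks were not run, since days 3 and 28 share no scan day and no chip lot and the change cannot then be estimated.

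With each animal left out, 4 against 3 cannot reach a p under 0.05. The difference then ran from 67.3 to 87.3 g for diabetic and 139 to 158 g for control body weight, from 0.135 to 0.185 g and 0.259 to 0.322 g for ventricle weight, and from -0.515 to -0.373 mg per g for the control ratio. Of 222 named genes that could be tested, 60 passed, and no call changed sign in any setting. Of these calls 19 held with the station as a block (Dbp, Bhlhe41, Pdxkl1, Ndufb1, Maoa, Kcna5, Aqp1, Mcf2l, Kcnk3, Gja1, Bcl2l1, Nos3, Foxs1, Tmc6, Ptprs, Ucp3, Gnai2, Pecam1 and Lep), 38 with median centring and 45 without day 3 replicate 1.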
